A study of Mus musculus with 9 samples.

Results

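RNA from brain samples of 18-month-old mice was compared with that of 5-month-old mice, both given saline, gene by gene and by gene families, with attention to which brain regions the RNA came from. The comparison used 6 of the 9 libraries of the study, 3 per age, and 13301 of the 22192 genes in the deposited table, those whose mean over the 9 libraries reached 1 TPM. TPM is a gene's share of a library's transcripts after correction for length. All mice were KM mice, an outbred stock, labelled male, and carried no stated mutation. The young group (5 months) and the aged group (18 months) had physiological saline by mouth every 2 days for 4 weeks. The other 3 libraries came from 18-month-old mice given 200 mg/kg of the ginseng polysaccharide GRP-E1F2 on the same schedule. They entered the filter and the estimate of spread but not the difference between the ages. The labels call the 3 libraries of a group parallel samples without naming the animals behind them. A p-value here therefore measures only the spread among these samples, and that spread may be technical. The labels name no brain region and no dissection, and their extraction protocol speaks of retina although the tissue is labelled brain.

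A mammalian brain is laid out from front to back, and its parts keep their own transcription factors for life. Olfactory bulb, cortex and striatum belong to the telencephalon and keep factors such as Emx1 and the Dlx family, while thalamus and hypothalamus, midbrain, cerebellum, medulla and spinal cord follow behind, and Hox genes are kept only in medulla and cord. Bulk RNA from a brain is therefore a sum over regions. In such bulk samples, fewer cells of a type and less RNA per cell cannot be told apart.

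The libraries summed to 999667 to 999929 TPM and listed 16715 to 16962 genes above 0, of which the top 10 held 7.87% to 9.94% of the sum. TPM keeps no depth, so counting error could not be given. In each group 1 library lay close to midway between the other pair. Young library 3, aged library 2 and treated library 3 fell between the other libraries of their group at 94.0%, 93.8% and 94.9% of the genes whose outer libraries differed by at least 0.5 on the log2 scale, and at other choices of the middle library the share was 15.6% to 30.0%. A least-squares mixture of the outer pair gave young library 3 a weight of 0.54 for young library 1, and aged library 2 a weight of 0.55 for aged library 1. The main results are also stated for the outer pair of each group alone, written below as 2 libraries per group. The Y-linked genes Uty, Kdm5d, Ddx3y and Eif2s3y stayed at or below 0.174 TPM in all 9 libraries, values that do not bear out the labelled sex. The X-linked Ddx3x was 49.7 to 71.5 TPM and is given for comparison only, and no female-specific gene is shown. Of the 20 listed retinal genes 5 reached the filter, and the list's summed level was 27.4 to 29.9 TPM in the young and 26.0 to 33.5 TPM in the aged libraries. The neuronal genes Snap25 and Rbfox3 were 2448 to 3573 and 155 to 205 TPM.

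With all 9 libraries in the fit, 2217 of 13301 genes (16.7%) passed an adjusted p of 0.05 between the ages (limma on log2(TPM + 1), Benjamini-Hochberg). Of these 729 rose with age (5.48% of the genes tested) and 1488 fell (11.2%). These genes are said below to have risen or fallen. Most of the called differences were small, with a median size of 0.45 on the log2 scale, and 57.1% of them were under 0.5. The median change of all genes tested was -0.05. Scaling the libraries by median of ratios brought that median to -0.01, with 925 rises and 1025 falls, and quantile normalisation brought it to -0.01 as well, with 966 rises and 1102 falls. Without the library in between, 2 libraries per group left 3 calls (0.0226%), with 1431 genes (10.8%) at an unadjusted p under 0.05. The 3 genes were Nps, described below, and the predicted genes Gm14037 and Gm54192, so apart from Nps no gene named below passed with 2 libraries per group. All 2217 called genes kept their direction there. Leaving out 1 library left 371 calls without young library 3, 379 without aged library 2, 635 without young library 2, 1172 without treated library 3 and 1330 without aged library 1.

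A count that needs no estimate of spread took genes at least 2-fold apart in group mean whose 3 young and 3 aged values did not overlap. There were 130 such genes higher in the aged libraries (0.977%) and 85 lower (0.639%), and 31 of the 215 were predicted genes. Group values did not overlap at 5517 genes (41.5%), with the aged libraries lower at 3564 (26.8%) and higher at 1953 (14.7%).

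The libraries of 1 age also differed from each other. Young library 1 and young library 2 were at least 2-fold apart at 164 genes (1.23%), and aged library 1 and aged library 3 at 190 genes (1.43%). Between the ages the count ran from 136 genes (1.02%) for young 1 against aged 3 to 704 genes (5.29%) for young 2 against aged 1. The closest pair across ages thus differed at fewer genes than either pair within an age. The genes that moved with age also had an order within the young group. Young library 2 exceeded young library 1 at 1257 of the 1488 genes that fell with age (84.5%), at 104 of the 729 that rose (14.3%) and at 55.9% of all genes tested. Aged library 3 exceeded aged library 1 at 68.5% of the genes that fell, at 25.7% of those that rose and at 45.4% of all. These shares use the same libraries as the age calls and are a description of them.

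**Figure D1:**
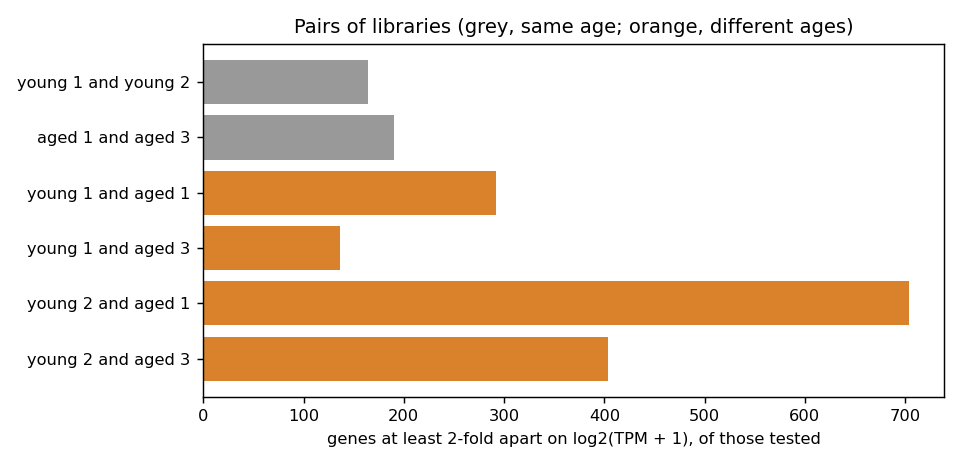
Number of genes at least 2-fold apart on the log2(TPM + 1) scale, of 13301 tested, for the 6 pairs of libraries that are not in between (bars; grey, same age; orange, different ages). Young 1 and aged 3 differed at 136 genes, fewer than the 164 of the young pair and the 190 of the aged pair.

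Genes of the hindmost brain were among the largest falls. Hox genes encode the homeodomain factors that set position along hindbrain and spinal cord. Their summed level over all 39 members in the table was 50.8, 65.3 and 58.3 TPM in young libraries 1, 2 and 3 and 1.64, 6.99 and 10.8 TPM in aged libraries 1, 2 and 3, and 12 members were at 0 in all 6. Below, the 3 values of a group always stand in this order of libraries. Only 6 of the 39 reached the filter, and they reached it through the young libraries, so their number says nothing beyond the values themselves. Hoxb5, on chromosome 11, was 10.96, 13.7 and 12.04 TPM in the young and 0, 0.979 and 1.26 TPM in the aged libraries (a log2 fold change of -3.000 with a standard error of 0.26, adjusted p = 0.0011; ± below marks that error). Hoxc4, on chromosome 15, went from 8.94, 9.66 and 9.65 to 0, 0.751 and 1.62 TPM (-2.65 ± 0.29, adjusted p = 0.0021). Hoxa5, on chromosome 6, went from 6.58, 10.3 and 8.54 to 0, 0.843 and 1.50 TPM (-2.49 ± 0.29, adjusted p = 0.0024). Every one of these aged values lay below every young value, and aged library 1 had all 3 genes listed at 0. Hoxb2, Hoxb3 and Hoxb6 fell by 2.00, 1.93 and 1.70 on the log2 scale. The median over these 6 was -2.24 with 3 and -2.28 with 2 libraries per group.

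Transcripts of neurons that use glycine, the fast inhibitory transmitter of hindbrain and cord, were lower as well. The 12 genes listed for hindbrain patterning and glycinergic neurons summed to 43.2, 63.2 and 57.1 TPM in young and to 25.9, 25.9 and 25.5 TPM in aged libraries, with no overlap. Of these genes 8 reached the filter, 6 fell and 1 rose, but 3 of the 8 averaged under 1 TPM over the 6 libraries of 18 months and reached it through the young ones, so nothing is read from that count. Slc6a5, the neuronal glycine transporter, was 6.68, 12.5 and 9.58 TPM in young and 1.45, 1.54 and 1.75 TPM in aged libraries (a fall of 2.00 ± 0.17 on the log2 scale, adjusted p = 0.0011). Glra1, the adult glycine receptor subunit, was 3.49, 5.50 and 4.15 against 0.103, 0.662 and 1.18 TPM (-1.74 ± 0.23, adjusted p = 0.0042). The other tested glycine receptor subunits did not pass, and the family's median was 0.04 over its 3 tested members. Nps encodes neuropeptide S, made by a few small clusters of brainstem neurons, and was 4.06, 4.97 and 6.28 TPM in the young and listed at 0 in every aged library. It passed with 3 libraries (adjusted p = 4.2e-05) and with 2 (adjusted p = 0.025). Pax2 and Lbx1, factors of hindbrain and cerebellar inhibitory neurons and of dorsal cord neurons, fell by 1.12 and 1.10, and Lhx1 fell by 0.73. The member that rose was Ucn, urocortin, a peptide of the midbrain Edinger-Westphal nucleus, at 1.61, 0.332 and 1.63 TPM in young and 3.75, 3.52 and 2.43 TPM in aged libraries (1.00 ± 0.25, adjusted p = 0.031). Mab21l2, a developmental gene of the midbrain and eye, was among the largest falls outside the lists, from 8.65, 10.01 and 9.62 to 1.34, 2.27 and 3.06 TPM (-1.73 ± 0.18, adjusted p = 0.0017).

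Cerebellar genes fell as well. Granule cells are the small excitatory neurons that fill the cerebellar cortex. Of their 15 tested genes 14 fell, while 11.2% of all genes did (median -0.69, range -1.27 to -0.36, and -0.67 with 2 libraries per group). Among these granule cell genes 1 averaged under 1 TPM over the 6 libraries of 18 months and reached the filter through the young ones. Gabra6, the GABA-A receptor subunit peculiar to these cells, was 146, 219.9 and 181 TPM in young and 102, 95.7 and 92.8 TPM in aged libraries (-0.88 ± 0.16, adjusted p = 0.011). Cbln1, the secreted cerebellin that binds parallel fibre synapses together, was 534, 741 and 618 against 339, 364 and 376 TPM (-0.80 ± 0.15, adjusted p = 0.013). Young library 2 was the highest and the aged libraries the lowest for both genes. Barhl1, a homeodomain factor of granule cells and of midbrain and hypothalamic neurons, was the one past 2-fold (8.20, 11.1 and 8.76 against 1.66, 3.88 and 5.02 TPM), and Barhl2 was the one that did not pass (-0.60, adjusted p = 0.1). The Zic factors, which granule cells keep, had 3 of 5 members that fell, with Zic1 at -0.74 and Zic2 at -0.80.

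Purkinje cells, the output neurons of the cerebellar cortex, had 11 of 14 tested genes that fell (median -0.68, and -0.67 with 2 libraries per group). Here too 1 gene averaged under 1 TPM over the libraries of 18 months and reached the filter through the young ones. Ppp1r17, a phosphatase inhibitor of Purkinje cells, was 112, 156 and 129 TPM in young and 65.7, 66.9 and 62.7 TPM in aged libraries (a fall of 1.00 ± 0.13 on the log2 scale, adjusted p = 0.0043). Car8, which binds the IP3 receptor, was 371, 548 and 451 against 213, 239 and 259.5 TPM (-0.93 ± 0.13, adjusted p = 0.0051). Pcp2 had a like difference at -0.98 ± 0.30 but did not pass (adjusted p = 0.052). Pcp4, which many forebrain neurons also make, was level at 11390.0, 10787 and 11122 TPM in young and 12231, 11366 and 11646 TPM in aged libraries. The border gene En2, of midbrain and cerebellum, fell from 43.7, 63.6 and 53.4 to 30.2, 32.8 and 35.8 TPM (-0.67 ± 0.13, adjusted p = 0.015). Of the Bergmann glia and cerebellar interneuron genes 3 of 7 fell, among them Gdf10 at -0.75, while Hopx, which forebrain astrocytes make as well, was at -0.18 (adjusted p = 0.59). The aged libraries lay below the young without overlap at all 15 granule cell genes and at 13 of the 14 Purkinje cell genes, against 26.8% of all genes.

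**Figure D2:**
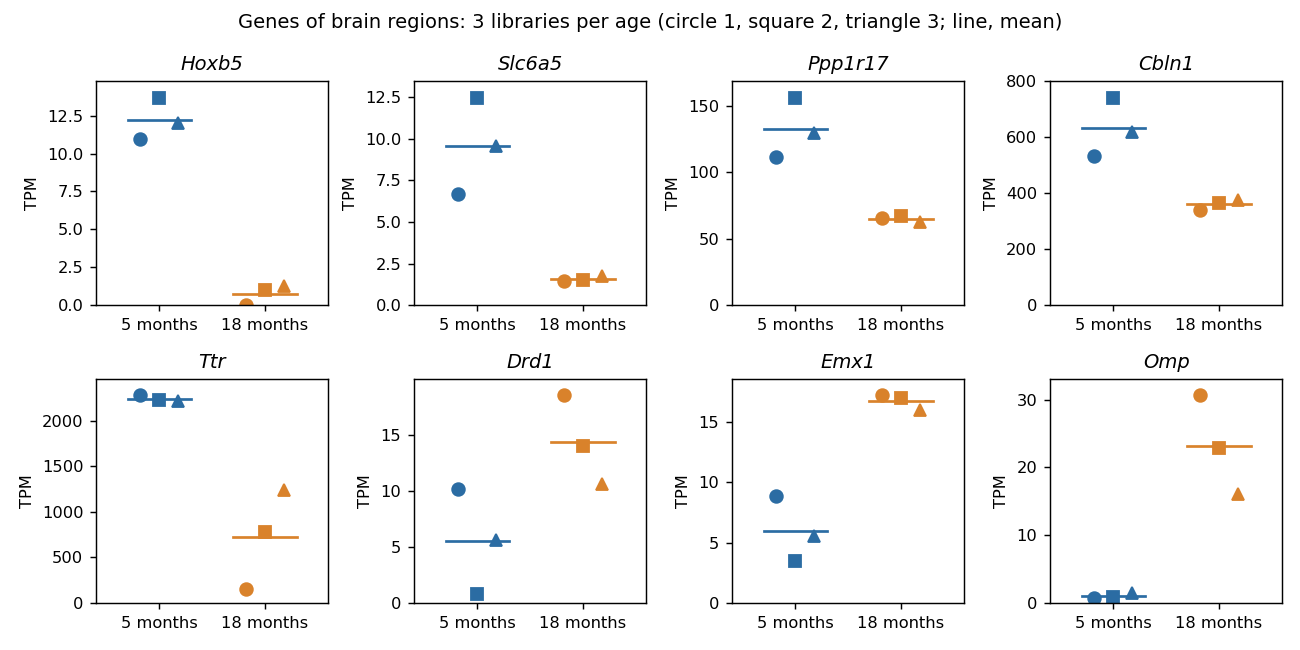
TPM of 8 region genes in the 3 libraries of each age (blue, 5 months; orange, 18 months; circle, square and triangle, libraries 1, 2 and 3; line, group mean; each vertical axis starts at 0). Hoxb5, Slc6a5, Ppp1r17, Cbln1 and Ttr lie lower at 18 months, and Drd1, Emx1 and Omp higher, with Drd1 running from 0.802 to 10.2 TPM within the young group.

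The midbrain lists had lower sums in the aged libraries, while diencephalon genes went in no common direction. The aged libraries spread widely for most of these lists, and the young libraries for the hypothalamus list. Of 9 tested genes of midbrain dopamine neurons 2 fell and none rose, while 11.2% of all genes fell and 5.48% rose. Of the 9, 1 averaged under 1 TPM over the libraries of 18 months and reached the filter through the young ones. Means were lower at 6 and higher at 3 (median -0.51, and -0.58 with 2 libraries per group). The list summed to 127.5, 157.3 and 142.0 TPM in young and 67.55, 87.5 and 107.7 TPM in aged libraries. Its mean log2 level overlapped, at 2.61 to 2.687 and 1.837 to 2.685. The tectum and tegmentum list, with 1 tested gene, summed to 5.717, 6.039 and 5.325 against 2.177, 3.375 and 4.72 TPM. Aldh1a1, the retinaldehyde dehydrogenase of ventral dopamine neurons, was 61.7, 85.5 and 70.8 TPM in young and 23.7, 29.1 and 35.1 TPM in aged libraries (-1.29 ± 0.15, adjusted p = 0.0022). Ret, the receptor subunit for glial cell line-derived neurotrophic factors, fell by 1.05. Slc6a3, the dopamine transporter, was 5.17, 6.02 and 5.92 TPM in young and 0.0776, 3.43 and 6.42 TPM in aged libraries (adjusted p = 0.23), so the aged libraries alone spanned more than the age difference. Slc17a6, the glutamate transporter of thalamic and brainstem neurons, fell from 16.8, 18.1 and 17.7 to 4.06, 8.59 and 12.2 TPM (-1.10 ± 0.29, adjusted p = 0.034). Of the 13 tested thalamic and habenular genes 2 fell and 1, Tac2, rose. But 3 of the 13 averaged under 1 TPM over the libraries of 18 months and reached the filter through the young ones. The list's mean log2 level was 2.71 to 2.75 in young and 2.01, 2.62 and 2.99 in aged libraries. Its median of -0.14 became 0.14 without aged library 1. None of the 9 tested hypothalamic genes passed with limma, and 1 had an unadjusted p under 0.05. Hcrt, the arousal peptide hypocretin of the lateral hypothalamus, was 57.6, 0.283 and 35.4 TPM in young and 1.27, 5.67 and 7.52 TPM in aged libraries. Oxt, oxytocin, was 45.7, 0 and 18.9 against 1.76, 2.97 and 4.86 TPM. Young library 2 held almost none of either and young library 1 the most, so both genes differed more within the young group than between the ages. The list's median of -0.55 became 0.04 without young library 1.

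Lists of forebrain patterning factors, neocortex and striatum showed the opposite direction, and the hippocampus list did not. Of its 6 tested genes 3 had higher and 3 lower means at 18 months, the median was -0.07, and none passed with limma (1 at an unadjusted p under 0.05). All 15 tested forebrain patterning factors had higher means in the aged libraries and 8 rose, against 5.48% of all genes (median 0.77, range 0.51 to 1.49, and 0.83 with 2 libraries per group). Of the 15, 1 averaged under 1 TPM in the young libraries and reached the filter through those of 18 months. Dlx6, a factor of forebrain inhibitory neurons, was 5.41, 1.15 and 3.09 TPM in young and 9.66, 10.3 and 9.38 TPM in aged libraries (1.49 ± 0.34, adjusted p = 0.022). The 3 aged values of Dlx6 lay close together and above all young values, and young library 2 was the lowest. Bcl11b, a factor of striatal and deep cortical projection neurons, was 9.68, 3.42 and 6.63 against 15.5, 14.3 and 14.00 TPM (1.13 ± 0.26, adjusted p = 0.024). Dlx1, Dlx2, Lhx2, Otx1 and Nr2e1 rose by 0.57 to 0.84.

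In the neocortex list 5 of 14 tested genes rose and none fell (median 0.65, and 0.61 with 2 libraries per group). Emx1, a factor of cortical excitatory neurons, was 8.86, 3.51 and 5.51 TPM in young and 17.2, 16.98 and 16.00 TPM in aged libraries (1.42 ± 0.26, adjusted p = 0.012). Tbr1, a factor of deep cortical layers, was 11.98, 3.92 and 8.39 against 25.7, 20.8 and 18.8 TPM (1.42 ± 0.33, adjusted p = 0.025). Mef2c, Rspo1 and Rorb were the others that rose. Slc17a7, the vesicular glutamate transporter of cortex and of cerebellar granule cells alike, did not pass (0.42 ± 0.17, adjusted p = 0.11), nor did Neurod2 at -0.18, which both regions also share.

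The striatum gave larger differences and fewer calls. All 14 tested striatal genes had higher means in the aged libraries, 8 of them past 2-fold without overlap (0.977% of all genes), yet only Foxp1 passed the test (median 1.11, and 1.26 with 2 libraries per group). Drd1, the dopamine receptor of direct pathway neurons, was 10.2, 0.802 and 5.63 TPM in young and 18.5, 14.02 and 10.6 TPM in aged libraries (1.56 ± 0.57, adjusted p = 0.09). Adora2a, the adenosine receptor of indirect pathway neurons, was 36.1, 1.38 and 19.8 against 49.9, 44.4 and 42.9 TPM (1.93 ± 0.88, adjusted p = 0.16). Young library 2 was far the lowest for both genes, and young library 1 came within reach of the aged libraries. Without young library 1 Drd1 passed (adjusted p = 0.028). Pdyn, which encodes the dynorphin precursor and is made by direct pathway neurons among others, rose and shared this order, with 16.7, 3.18 and 10.1 TPM in young and 32.1, 27.1 and 25.2 TPM in aged libraries (1.63 ± 0.45, adjusted p = 0.039). Its level in young library 2 was the lowest of the 6, as for Drd1, Adora2a and Dlx6, and the part of the striatal share in the difference was not tested. Oprd1, the delta opioid receptor, rose by 0.85 ± 0.14 (adjusted p = 0.0083), and the other 6 opioid genes did not pass.

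At the front end of the brain, 2 genes of olfactory sensory neurons were the largest rises of all. These neurons sit in the nose and send their axons to the olfactory bulb. S100a5, a calcium-binding protein of these neurons, was 0.614, 0.643 and 0.632 TPM in young and 54.9, 44.1 and 17.7 TPM in aged libraries (4.47 ± 0.71, adjusted p = 0.0077). Omp, the olfactory marker protein, was 0.793, 0.825 and 1.45 against 30.6, 22.8 and 16.04 TPM (3.55 ± 0.42, adjusted p = 0.0027). Both were near 1 TPM in all young libraries and highest in aged library 1. Cdhr1, a cadherin of bulb projection neurons, rose from 0.850, 0.216 and 0.540 to 5.51, 5.27 and 5.27 TPM (2.07 ± 0.38, adjusted p = 0.011), and Doc2g, of the same cells, was 4.33, 2.85 and 4.18 against 11.2, 10.3 and 9.78 TPM (adjusted p = 0.053, and 0.0058 in a fit of only the 6 saline libraries). Of the 12 genes of olfactory sensory neurons 6 reached the filter, and Gng13, which cerebellar Purkinje cells also make, fell by 0.66. Reln, made by bulb, cortical and cerebellar granule cells, fell by 0.48. Of the 11 tested genes of the olfactory bulb list Cdhr1 was the 1 that rose and Reln the 1 that fell, 7 had higher and 4 lower means, and 4 averaged under 1 TPM in the young libraries.

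**Figure D3:**
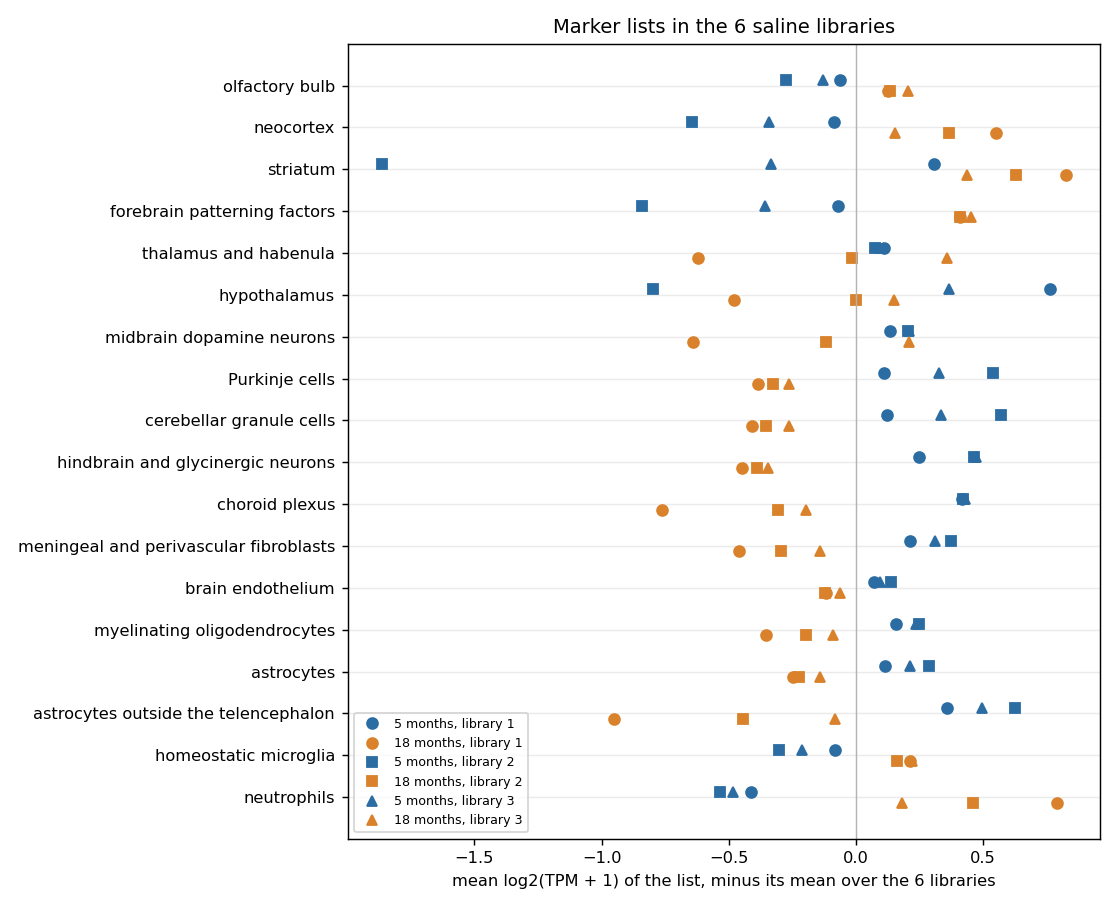
Mean log2(TPM + 1) of 18 marker lists in each saline library, less the list's mean over the 6 libraries (blue, 5 months; orange, 18 months; circle, square and triangle, libraries 1, 2 and 3). The neocortex, striatum, forebrain patterning and homeostatic microglia lists lie to the right at 18 months, and the cerebellar, hindbrain, choroid plexus, oligodendrocyte and astrocyte lists to the left; young library 2 stands lowest for striatum and highest for the cerebellar lists.

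Choroid plexus genes were lower in the aged libraries, and pituitary genes had no common direction. The choroid plexus is the epithelium in the ventricles that makes cerebrospinal fluid, and 6 of its 9 tested genes fell (median -0.92, and -0.90 with 2 libraries per group). Ttr, the thyroid hormone carrier transthyretin and its most abundant product, was 2282, 2229 and 2224 TPM in young and 155, 782 and 1241 TPM in aged libraries (-2.07 ± 1.34, adjusted p = 0.31). The young libraries were almost equal, while the highest aged value was 8.02 times the lowest, and the gene did not pass although its groups did not overlap. Kcne2, a potassium channel subunit of the plexus, was 10.4, 13.3 and 12.1 against 0, 2.41 and 2.68 TPM (-2.47 ± 0.62, adjusted p = 0.03). Folr1, the folate receptor, fell by 1.52, and Kl, which encodes the anti-ageing hormone Klotho, was 2.07, 1.95 and 1.90 against 0.553, 0.903 and 0.931 TPM (-0.73 ± 0.18, adjusted p = 0.03). Kl fell together with 5 other plexus genes, and the part of the amount of plexus in its fall was not tested. Of the 9 tested plexus genes 1 averaged under 1 TPM over the 6 libraries of 18 months and reached the filter through the young ones. The pituitary hormone gene Gh, growth hormone, was listed at 0, 0.0952 and 0 TPM in young and 12.8, 9.73 and 7.95 TPM in aged libraries. Prl, prolactin, was 0.329, 0.262 and 0.508 against 8.24, 6.96 and 7.86 TPM, and neither passed (adjusted p = 0.19 and 0.33). The treated libraries, which enter the estimate of spread, ran from 0 to 263.5 TPM for Gh and from 0.36 to 554 TPM for Prl, and in a fit of only the 6 saline libraries both genes passed (adjusted p = 0.00037 and 0.00018). Of the 6 tested anterior pituitary genes 3 had higher and 3 lower means at 18 months, and none passed with limma (0 at an unadjusted p under 0.05). Tshb and Lhb, subunits of thyrotropin and luteinizing hormone, were at -0.40 and -0.47. Of these 6 genes 3 averaged under 1 TPM in the young libraries and reached the filter through those of 18 months. The summed level of the whole list was 192, 215 and 206 TPM in young and 224, 202 and 193 TPM in aged libraries, so the sums overlapped. Its mean log2 level did not overlap, at 0.888, 0.944 and 0.914 in young and 1.394, 1.337 and 1.391 in aged libraries.

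Meningeal and perivascular fibroblasts had 12 of 15 tested genes that fell (median -0.54, and -0.56 with 2 libraries per group). Dcn, the matrix proteoglycan decorin, was 28.96, 38.9 and 33.1 TPM in young and 9.96, 11.99 and 12.9 TPM in aged libraries (-1.45 ± 0.12, adjusted p = 0.00099). Col1a1, a chain of type I collagen, was 4.70, 5.67 and 5.56 against 1.44, 1.82 and 2.26 TPM (-1.16 ± 0.18, adjusted p = 0.0073). All aged values of both genes lay below all young ones. Of the 17 tested collagen genes 8 fell and 1, Col6a1, rose. Col8a2, a basement membrane collagen, fell furthest (2.17, 2.75 and 2.40 against 0.221, 0.326 and 0.326 TPM). But 3 of the 17 averaged under 1 TPM over the 6 libraries of 18 months, as did 1 of the 15 fibroblast genes. They reached the filter through the young libraries, so these counts may lean towards falls. Brain endothelium moved less, with 3 of 15 tested genes that fell, against 11.2% of all genes (median -0.18). Means were lower at 14 of the 15, and aged libraries were lower without overlap at 10, against 26.8% of all genes. Mfsd2a, the lipid transporter of the blood-brain barrier, was 15.8, 15.1 and 15.2 TPM in young and 8.98, 8.46 and 10.1 TPM in aged libraries (-0.69 ± 0.12, adjusted p = 0.0093), and Cldn5, the main tight junction claudin, did not pass (-0.22, adjusted p = 0.22). Of the pericyte and smooth muscle genes 4 of 9 fell, with Kcnj8 at -0.67 and Notch3 at -0.46.

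Myelin genes fell together. Oligodendrocytes wrap axons in myelin, and 16 of their 20 tested genes fell while none rose (median -0.41, range -0.70 to -0.07, and -0.42 with 2 libraries per group). Mbp, myelin basic protein, which holds the myelin layers together, was 4198, 4317 and 4293 TPM in young and 2956, 3210.4 and 3223 TPM in aged libraries (-0.45 ± 0.06, adjusted p = 0.0036). Hapln2, a link protein at nodes of Ranvier, was 33.2, 38.5 and 36.5 against 17.9, 21.6 and 26.5 TPM (-0.70 ± 0.14, adjusted p = 0.016). The groups did not overlap for either. Opalin and Sox10 did not pass, at -0.07 and -0.14. Of 13 tested genes of oligodendrocyte precursors 1 fell (median -0.15). In the same libraries the cerebellar granule cell list had a mean log2 level of 5.57 to 6.02 in young and 5.04 to 5.18 in aged libraries, and the summed Hox level stood as above. The part of this regional difference in the fall of myelin genes was not tested.

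Astrocytes support neurons and clear transmitter, and 13 of their 16 tested genes fell (median -0.43, and -0.40 with 2 libraries per group). Aqp4, the water channel of astrocyte end-feet, was 37.4, 50.9 and 42.9 TPM in young and 21.5, 21.1 and 22.8 TPM in aged libraries (-0.96 ± 0.11, adjusted p = 0.0024). Gjb6, connexin 30 of astrocyte gap junctions, was 101, 112 and 108 against 53.04, 55.8 and 61.3 TPM (-0.90 ± 0.09, adjusted p = 0.0017). The 2 astrocyte glutamate transporters differed in sign. Slc1a3, richest in Bergmann glia, fell by 0.46, whereas Slc1a2, richest in cortex and hippocampus, was 55.9, 49.3 and 54.9 TPM in young and 82.2, 67.9 and 57.00 TPM in aged libraries (0.35 ± 0.14, adjusted p = 0.11). Of 4 genes of astrocytes outside the telencephalon 3 fell, with a median of -0.84. Agt, angiotensinogen, made by astrocytes of diencephalon and brainstem, was 68.8, 80.5 and 76.4 against 14.4, 26.7 and 39.3 TPM (-1.56 ± 0.45, adjusted p = 0.046). Of the reactive astrocyte genes 4 of 13 fell, among them Vim at -0.45, and S1pr3 rose. Gfap, the intermediate filament of reactive astrocytes, was 78.2, 88.8 and 84.8 TPM in young and 49.96, 71.1 and 93.9 TPM in aged libraries and did not pass (adjusted p = 0.35).

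Microglia, the macrophages of the brain, went the other way. All 13 tested genes of homeostatic microglia had higher means in the aged libraries and 7 rose (median 0.35, range 0.10 to 0.70, and 0.36 with 2 libraries per group). Aif1, which encodes the microglial protein IBA1, was 13.9, 10.5 and 10.4 TPM in young and 19.3, 20.9 and 18.1 TPM in aged libraries (0.70 ± 0.13, adjusted p = 0.013). P2ry12, the purinergic receptor that guides microglial processes, was 9.11, 6.54 and 7.63 against 13.6, 10.98 and 11.2 TPM (0.56 ± 0.15, adjusted p = 0.038). Young library 2 was the lowest of the 6 for both genes or close to it, and Cx3cr1 overlapped between ages at 10.6, 7.99 and 9.18 and 10.5, 9.73 and 10.9 TPM. Of 16 tested genes of disease-associated microglia 1 rose and 2 fell. Trem2, the lipid receptor of that state, was 12.6, 12.7 and 12.1 TPM in young and 16.1, 19.2 and 22.9 TPM in aged libraries (0.58 ± 0.13, adjusted p = 0.021). Spp1, osteopontin, which brainstem neurons also make, fell from 28.6, 36.2 and 33.96 to 7.32, 12.5 and 16.95 TPM (-1.42 ± 0.27, adjusted p = 0.013), and Apoe was at -0.07 (adjusted p = 0.71).

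Transcripts listed for neutrophils were higher in sum in the aged libraries. Only 4 of 12 neutrophil genes reached the filter, and they did so through the libraries of aged mice, so their number carries no weight. The summed level of all 12 was 9.35, 6.07 and 7.34 TPM in young and 103, 68.1 and 37.3 TPM in aged libraries. S100a9, a subunit of the granulocyte protein calprotectin, was 3.51, 2.02 and 2.38 TPM in young and 54.4, 34.8 and 14.7 TPM in aged libraries (3.13 ± 0.42, adjusted p = 0.0045). Ngp, neutrophilic granule protein, was 0.601, 0.783 and 0.766 against 7.88, 7.04 and 3.63 TPM (2.01 ± 0.21, adjusted p = 0.0017). All aged values of S100a9 and Ngp lay above all young ones, with aged library 1 the highest and aged library 3 the lowest of the aged. None of the 4 tested red cell genes passed, and Hba-a1 was 1315, 1645 and 1491 TPM in young and 880.0, 1310.4 and 1524 TPM in aged libraries. Ly6c2, a surface antigen of monocytes, rose from 0.807, 0 and 0.542 to 5.18, 4.01 and 2.07 TPM (1.70 ± 0.31, adjusted p = 0.012). Ccl21a, a chemokine of a family with near-identical copies whose reads may have been split, was listed at 0 in every young library and at 3.35, 3.31 and 2.36 TPM in the aged.

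Few genes of immune signalling passed, but the antigen presentation and interferon lists lay higher in the aged libraries. Their mean log2 levels did not overlap between the ages. Aged libraries were higher without overlap at 6 of 12 antigen presentation and 5 of 11 interferon genes tested, against 14.7% of all. They were lower without overlap at 1 gene of each list. The medians were 0.26 and 0.30, and 5.48% of all genes rose. Of 12 tested genes of antigen presentation only Psmb8, an immunoproteasome subunit, rose (4.85, 3.85 and 4.26 against 6.41, 7.27 and 7.58 TPM, 0.61 ± 0.16, adjusted p = 0.034). B2m, the light chain of MHC class I, was 282, 307 and 291 TPM in young and 411, 437 and 393 TPM in aged libraries and did not pass (adjusted p = 0.062), although its groups did not overlap. Of 11 tested interferon response genes Ifit1 and Xaf1 rose, at 0.51 and 0.49. In the complement list Cfb rose by 0.35, 2 genes fell, among them Serping1 by 0.42, and C1qa, the starting component made by microglia, did not pass (0.24, adjusted p = 0.22). No gene of the senescence list passed with limma out of 10 tested, and 2 had an unadjusted p under 0.05. Cdkn1a, the cell cycle inhibitor p21, was 52.5, 38.02 and 49.6 TPM in young and 43.8, 39.5 and 36.4 TPM in aged libraries (-0.21 ± 0.15, adjusted p = 0.34), and its groups overlapped. Of 9 tested genes of the senescence-associated secretion list Igfbp4, which binds insulin-like growth factors, rose from 31.3, 22.2 and 27.8 to 66.4, 59.9 and 50.4 TPM (1.09 ± 0.20, adjusted p = 0.011), and Mmp2 and Igfbp2 fell by 0.57 and 0.37.

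**Figure D4:**
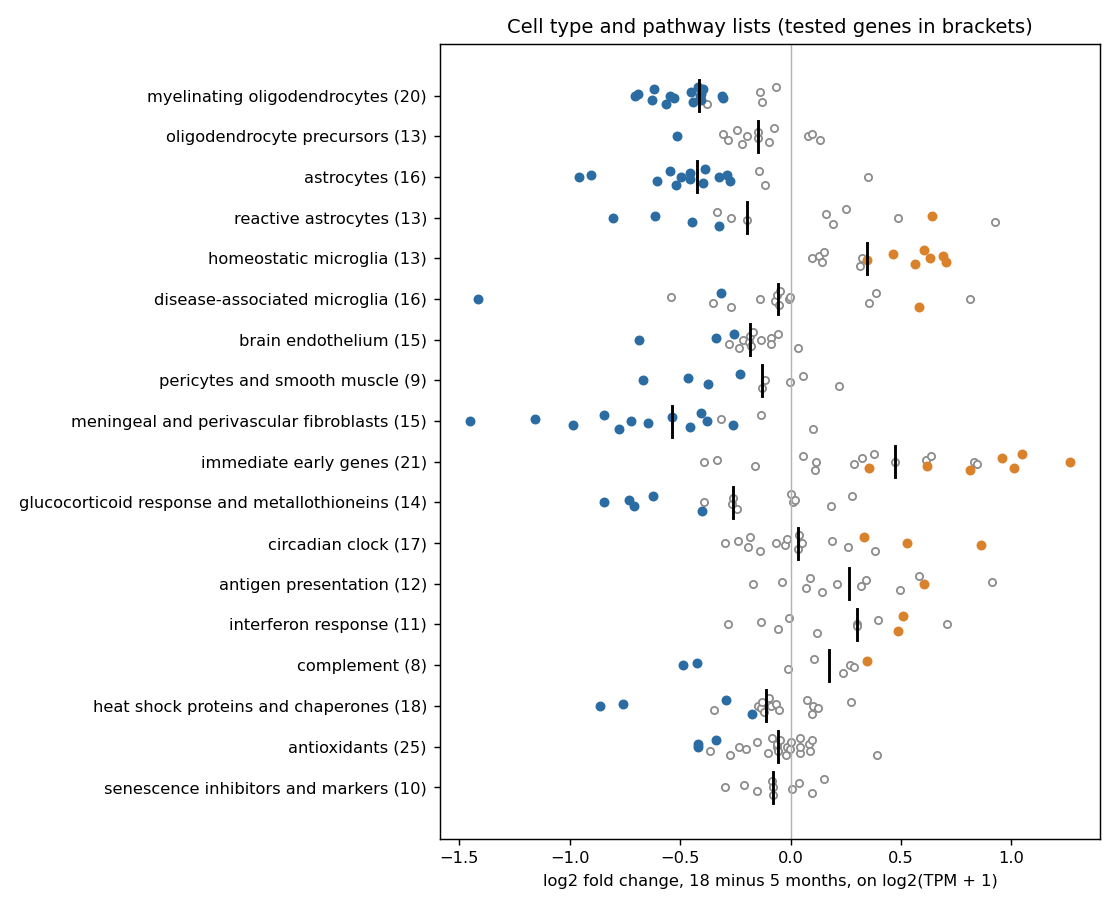
Log2 fold change (18 minus 5 months) of every tested gene in 18 lists of cell types and pathways (filled orange, rose; filled blue, fell; open, did not pass; bar, median of the list). Myelin, astrocyte and fibroblast genes lie mostly left of 0, homeostatic microglia genes right of it and immediate early genes mostly so, and the senescence list has no filled point.

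Immediate early genes are switched on rapidly by neuronal activity, many through the factor CREB, which binds the cyclic AMP response element. Of 21 tested members 7 rose and none fell (median 0.47, and 0.53 with 2 libraries per group). Arc, a regulator of glutamate receptor uptake at synapses, was 59.8, 36.5 and 47.98 TPM in young and 144, 114 and 92.4 TPM in aged libraries (1.27 ± 0.29, adjusted p = 0.023). Nr4a1, an orphan nuclear receptor, was 36.5, 28.7 and 33.8 against 82.1, 66.7 and 59.9 TPM (1.05 ± 0.13, adjusted p = 0.0029). For both genes aged library 1 was the highest and young library 2 the lowest, the order of the neocortex list, whose mean log2 level was 4.48, 3.92 and 4.23 in young and 5.12, 4.93 and 4.72 in aged libraries. Fos, a subunit of the AP-1 factor, rose by 0.36 ± 0.10 (adjusted p = 0.039). Jun and Nr4a3 did not pass, at -0.16 and -0.39. The part of the cortical share in these rises was not tested. The promoters of Nr4a1 and Fos are shown because both genes rose and both windows carry the element's half-site CGTCA, which reads TGACG on the other strand (both were searched). Each window runs from 250 bases before to 50 after the RefSeq start (build GRCm38.p6), and capitals mark the half-sites. The Nr4a1 window is chr15:101266596-101266895 on the plus strand and that of Fos is chr12:85473640-85473939 on the plus strand.
Nr4a1: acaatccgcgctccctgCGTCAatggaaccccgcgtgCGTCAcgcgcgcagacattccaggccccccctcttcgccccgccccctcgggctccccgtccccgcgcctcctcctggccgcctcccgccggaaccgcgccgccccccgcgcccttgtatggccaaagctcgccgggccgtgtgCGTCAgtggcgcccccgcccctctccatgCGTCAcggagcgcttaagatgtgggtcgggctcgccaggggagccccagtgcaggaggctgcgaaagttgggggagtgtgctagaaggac
Fos: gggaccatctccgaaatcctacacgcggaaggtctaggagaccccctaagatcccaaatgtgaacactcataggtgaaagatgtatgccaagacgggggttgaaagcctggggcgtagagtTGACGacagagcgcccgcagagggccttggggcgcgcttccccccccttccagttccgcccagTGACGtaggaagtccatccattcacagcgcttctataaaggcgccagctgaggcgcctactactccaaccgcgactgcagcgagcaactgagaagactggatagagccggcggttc
Nr4a1 has 4 half-sites in its window and Fos 2, while 20.8% of 32851 RefSeq windows of this length hold at least 1, 5.01% at least 2 and 0.231% at least 4. A match is a description of the sequence only. The window of Nr4a3, which did not rise, has 4 as well.

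Metallothioneins bind zinc and copper, and astrocytes make most of Mt1 and Mt2. Mt1 fell from 7802, 9248 and 8432 TPM in young to 4101, 4500.4 and 5691 TPM in aged libraries (-0.84 ± 0.12, adjusted p = 0.0047), and Mt2 from 3171, 4053 and 3582 to 1771, 2099.7 and 2706 TPM (-0.73 ± 0.17, adjusted p = 0.025). Mt3 was 4741, 4330.2 and 4483 against 4795, 5478 and 6225 TPM and did not pass (0.28 ± 0.10, adjusted p = 0.098). Of the 14 tested genes of the list of metallothioneins and glucocorticoid response 5 fell, the others being Plin4, Pdk4 and Errfi1, and Fkbp5, a standard glucocorticoid target, was at 0.02 (adjusted p = 0.94). Mt1 and Mt2 lie side by side and answer to the metal-responsive factor MTF1, and their promoters are shown with matches to the core of the metal response element (TGCGCNC or TGCACNC, both strands, overlaps counted) in capitals. The windows are chr8:94178839-94179138 for Mt1 and chr8:94172368-94172667 for Mt2, both on the plus strand, in the same build.
Mt1: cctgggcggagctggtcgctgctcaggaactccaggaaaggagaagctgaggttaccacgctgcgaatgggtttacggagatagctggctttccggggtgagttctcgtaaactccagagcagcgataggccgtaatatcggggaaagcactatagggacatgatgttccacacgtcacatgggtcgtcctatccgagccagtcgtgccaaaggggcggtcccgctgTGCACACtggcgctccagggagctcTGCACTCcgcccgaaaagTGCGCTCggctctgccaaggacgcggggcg
Mt2: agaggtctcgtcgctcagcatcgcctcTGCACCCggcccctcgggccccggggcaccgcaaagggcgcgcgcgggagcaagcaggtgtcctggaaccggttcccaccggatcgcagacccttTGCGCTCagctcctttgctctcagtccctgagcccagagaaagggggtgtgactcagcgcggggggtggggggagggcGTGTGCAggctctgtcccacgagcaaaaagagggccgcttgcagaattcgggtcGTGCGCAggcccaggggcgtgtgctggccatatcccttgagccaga
Mt1 has 3 matches and Mt2 4, against 25.7% of windows with at least 1 and 1.97% with at least 3. In the clock list 3 of 17 genes rose. Dbp, an output factor of the clock, was 202, 205 and 210.3 TPM in young and 299.6, 303 and 289 TPM in aged libraries (0.53 ± 0.04, adjusted p = 0.0011), and Npas2, the forebrain partner of BMAL1, rose by 0.86 ± 0.14 (adjusted p = 0.0084). Bmal1 itself was at 0.04 and Per1 at -0.03, and the hour of death is not given in the labels.

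Ion channels and receptors moved in both directions. Of 70 tested potassium channel genes 16 rose and 15 fell, both above the shares over all genes, with a median of 0.03. Kcnj10, the potassium channel of glia, was 42.2, 50.2 and 46.5 TPM in young and 24.5, 26.1 and 28.1 TPM in aged libraries (-0.79 ± 0.11, adjusted p = 0.0044), and Kcng4, a silent subunit, fell by 1.05. Kcnh3, a forebrain channel of the EAG family, rose from 22.5, 9.39 and 15.9 to 38.7, 33.7 and 31.8 TPM (1.15 ± 0.24, adjusted p = 0.017), and Kcnj4, an inward rectifier of striatum and cortex, from 51.6, 15.4 and 35.2 to 78.7, 70.9 and 71.9 TPM (1.25 ± 0.34, adjusted p = 0.037). Young library 2 was the lowest of all for both. Of 23 tested calcium channel genes 5 rose and 2 fell, with Cacnb3 at 0.81 and Cacna1g at -0.52. The muscarinic receptors Chrm1, Chrm3 and Chrm4, rich in cortex and striatum, rose by 0.92 to 1.09. Among ionotropic glutamate receptor subunits 3 of 17 rose and 4 fell, while 5.48% of all genes rose and 11.2% fell. Those that fell included Grin2c, an NMDA subunit of the cerebellum, with Gria4 and Grik1. Grin2b, the NMDA subunit of the forebrain, rose from 1.03, 0.613 and 0.877 to 2.32, 1.91 and 1.52 TPM (0.66 ± 0.15, adjusted p = 0.024). It averaged under 1 TPM in the young libraries and reached the filter through those of 18 months. Adra2a, a receptor of noradrenergic brainstem neurons among others, fell by 0.80, and Adra1d and Adrb1 rose by 0.87 and 0.83.

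The postsynaptic list had 6 of 20 tested genes that rose and 2 that fell. Nrgn, neurogranin, a calmodulin-binding protein of forebrain dendrites and one of the most abundant transcripts, was 11950.0, 3946 and 8259.9 TPM in young and 21322, 18099 and 14297 TPM in aged libraries (1.27 ± 0.36, adjusted p = 0.041). Camk2a, the kinase subunit of forebrain excitatory synapses, was 419.6, 226 and 335 against 699.8, 644 and 555 TPM (0.99 ± 0.21, adjusted p = 0.019). Homer3, the Homer scaffold of Purkinje cells, moved the other way, from 129, 186 and 159.8 to 67.1, 78.3 and 97.3 TPM (-0.96 ± 0.16, adjusted p = 0.0083). Of the 20 genes 12 did not pass, among them the scaffolds Dlg4 and Shank1 (0.18 and 0.05). Aged libraries were higher without overlap at 12 of the 20 and lower at 3, against 14.7% and 26.8% of all genes. The part of regional shares in these values was not tested. In the vesicle release list, Stx1a rose by 1.15 and Vamp1, the synaptobrevin of hindbrain and cord, fell from 897, 1166 and 1023 to 514, 566 and 571 TPM (-0.90 ± 0.10, adjusted p = 0.0018). Of 18 tested ephrin and Eph receptor genes, which guide axons, 6 rose and none fell, with Epha4 at 10.4, 7.28 and 8.66 TPM in young and 21.2, 17.2 and 14.1 TPM in aged libraries (0.91 ± 0.18, adjusted p = 0.015). Npy, a peptide of cortical and striatal interneurons, rose from 393, 228 and 316 to 653, 622 and 543 TPM (0.98 ± 0.17, adjusted p = 0.01), while Gad1, the enzyme that makes GABA in every region, was at 0.04.

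**Figure D5:**
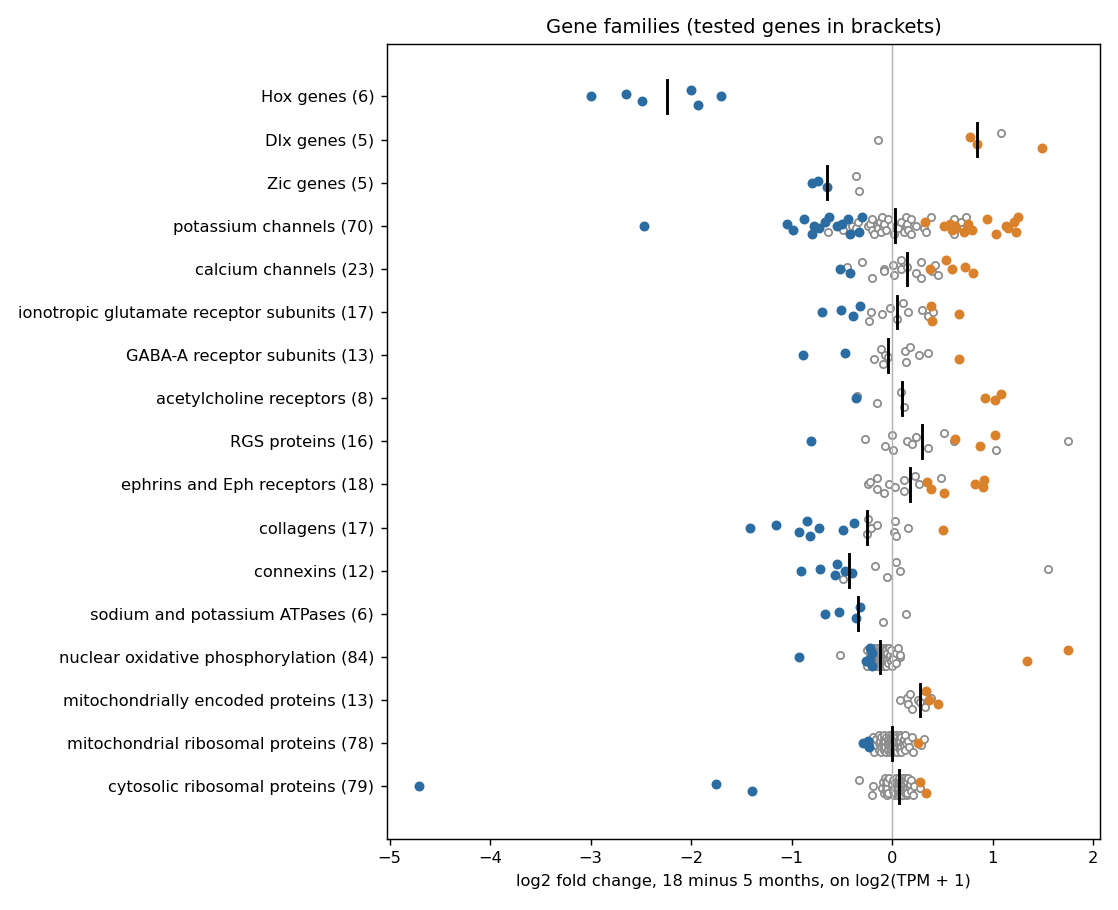
Log2 fold change (18 minus 5 months) of every tested gene of 17 families (filled orange, rose; filled blue, fell; open, did not pass; bar, median). The 6 Hox genes lie between -3.00 and -1.70, potassium channels spread to both sides with 16 rises and 15 falls, and the 2 rises of nuclear oxidative phosphorylation are Cox8b and Cox6a2.

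Among families of cell maintenance, the sodium and potassium pumps fell at 4 of 6 tested genes. Atp1b2, the beta subunit of astrocytes, fell by 0.67 and Atp1b3 by 0.36, while Atp1b1, the beta subunit of neurons, was at -0.09 (adjusted p = 0.23). Connexins fell at 6 of 12 tested genes, among them Gja1 and Gjb6 of astrocytes, Gjb1 and Gjc3 of myelinating cells, and Gjb2. Heat shock proteins fell at 4 of 18, with Hspb6 at -0.86 and Hspb8 at -0.76, whereas Hspa8, the constitutive chaperone, was at -0.15 (adjusted p = 0.066). Of 25 tested antioxidant genes 3 fell and none rose, which is near the 11.2% of all genes that fell.

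The respiratory chain is encoded by mitochondrial and nuclear DNA. All 13 genes of mitochondrial DNA had higher means in the aged libraries and 3 rose (median 0.28). Their summed level was 36560, 39140 and 37940 TPM in young and 49880, 43990 and 39720 TPM in aged libraries, so aged library 3 was close to young library 2. Of 84 tested nuclear genes 74 had lower means, 6 fell and 2 rose, both smaller shares than the 11.2% and 5.48% of all genes (median -0.12, and -0.07 with median-of-ratios scaling). Aged libraries were lower without overlap at 34 of the 84 and higher at 3, against 26.8% and 14.7% of all genes. The mean log2 level of the nuclear family overlapped between the ages. The nuclear rises were Cox8b, from 5.72, 4.94 and 2.39 to 10.3, 14.5 and 28.4 TPM (1.75 ± 0.37, adjusted p = 0.017), and Cox6a2, from 11.2, 9.91 and 10.3 to 23.7, 33.4 and 27.8 TPM (1.34 ± 0.20, adjusted p = 0.0061), both subunits known best from heart and skeletal muscle. Another muscle-type subunit, Cox7a1, went the other way, from 32.8, 46.3 and 33.7 to 13.9, 21.4 and 23.4 TPM (-0.92 ± 0.22, adjusted p = 0.027).

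Of 79 tested cytosolic ribosomal protein genes 74 did not pass, 2 rose and 3 fell. Rpl30 was 942, 944 and 948 TPM in young and 119, 344 and 531 TPM in aged libraries (-1.75 ± 0.43, adjusted p = 0.027). Rpl39l, a paralogue of Rpl39 best known from testis, was 64.6, 58.7 and 41.9 against 2.12, 2.04 and 0 TPM (-4.70 ± 0.46, adjusted p = 0.0015). Ribosomal protein genes have many near-identical pseudogenes, and the sources used here do not say how reads that match several copies were assigned, so these values are uncertain. The histone genes H2ac18 and H2ac19 had identical values in all 6 libraries (log2 fold change -0.39), and their 2 falls stand for 1 measurement.

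Outside all lists, Dmkn, which encodes the secreted protein dermokine, rose from 8.57, 1.98 and 4.86 to 47.2, 41.8 and 27.3 TPM (2.82 ± 0.44, adjusted p = 0.0073), and Smim43, a small membrane protein, from 75.96, 22.98 and 62.2 to 238, 173 and 106 TPM (1.75 ± 0.45, adjusted p = 0.033). Young library 2 was the lowest for both, as for the telencephalic genes. Other large rises from near 0 were Gpr15lg, Mdfic2 and Urah, at 4.83, 6.36 and 3.27 TPM in aged library 2 and at most 1.39 TPM in any young library. Npb, neuropeptide B, fell from 4.99, 6.71 and 7.57 to 1.33, 0.376 and 1.94 TPM (-1.80 ± 0.40, adjusted p = 0.02), and Rsph3b, a radial spoke protein of motile cilia with a close paralogue, from 3.03, 5.04 and 3.87 to 0.286, 0 and 0 TPM. Rsph3b aside, none of 7 tested genes of ciliated ependymal cells passed with limma, 2 of them at an unadjusted p under 0.05 (median -0.19).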

How the data were processed

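RNA was measured by sequencing in 9 brain libraries, 3 per group, made from 0.4 ug of total RNA per the labels' protocols. The values are TPM per gene and library, computed by the authors and used here as deposited; the submitters' processing notes name HISAT2, Picard, SAMtools 0.1.18 and GATK with the build mm10. Which program, annotation and strand setting gave the TPM is not stated there. Near-identical genes may share reads in an unknown way, and depth per library is unknown.

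Genes with a mean of 1 TPM or more over 9 libraries (13301 of 22192) were transformed to log2(TPM + 1) and a linear model was run over all 9 libraries (limma 3.58.1, R 4.3.3; lmFit, then contrasts.fit and trended eBayes) for the contrast aged saline minus young saline. Two-sided p-values were corrected for the 13301 genes after Benjamini and Hochberg, with a threshold of 0.05. The fit was first tested on simulated data with known changes. Gene positions and promoter windows came from RefSeq tables of GRCm38.p6. Summaries and figures used Python 3.11.15, numpy 2.4.6, pandas 2.3.3 and matplotlib 3.10.9.

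The 56 gene lists (21 of regions, 18 of cell types, 17 of pathways) and 53 families by symbol were chosen with earlier results of these data known, and no list was tested as a set. Of 781 list symbols 778 were matched; Fcrls, Mx2 and Ddx58 were not analysed here. Genes were named by a rule: the 15 largest rises and 15 largest falls among called genes with no overlap between groups, predicted genes aside; the first 3 of each list; and for each list and family the 3 smallest p and the 2 highest means; and the Y-linked genes Uty, Kdm5d, Ddx3y and Eif2s3y as a check of the labelled sex. Other list members are given as values where their list is described. Ddx3x is outside that rule and was picked with its values known. Some genes that the rule takes are not reported here. Alternatives were 2 other pseudocounts, 2 other filters, 2 scalings, TPM without mitochondrially encoded genes, a block for the replicate number, the 6 saline libraries alone, 2 libraries per group, robust and untrended eBayes, and leaving out each library.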

Additional observations from a re-analysis of the deposited data

How the results depend on the processing

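The 2217 calls (729 rose, 1488 fell) were within 1.5 times of that under pseudocounts of 0.1 and 5 TPM, no filter, a mean of at least 5 TPM, both scalings, no mitochondrially encoded genes, the 6 saline libraries alone, and robust or untrended eBayes, at 1784 to 2387. Rises were 32.9% of calls in the main fit, 47.4% with median-of-ratios scaling (925 rose, 1025 fell) and 46.7% with quantile normalisation (966 rose, 1102 fell). With 2 libraries per group limma left 3 calls, 1 that rose and 2 that fell, at 1431 genes with an unadjusted p under 0.05. Leaving out 1 library gave 371 to 2635 calls, with 96 to 913 that rose and 275 to 1722 that fell. The lowest came without young library 3 and without aged library 2 (379), the libraries that lie between the other pair of their group. The count past 2-fold without overlap, 130 higher and 85 lower, was 218 and 156 with a pseudocount of 0.1 TPM, 44 and 27 with 5 TPM, and 44 lower with a mean of at least 5 TPM. Leaving out 1 library gave 81 to 213 higher and 73 to 134 lower. The causes were not tested, except that a pseudocount changes log2 differences of low genes by its construction and that a stricter filter tests fewer genes.

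Of 280 named genes that passed the test or the 2-fold rule, none changed sign in any of 21 settings in which it was tested. With 2 libraries per group 263 lost their call, with median-of-ratios scaling 25, with quantile normalisation 19, with only the saline libraries 26, and without 1 library 1 to 178. Of 42 list and family medians of at least 0.2 in size, 1 changed sign in any setting: that of the hypothalamus list, from -0.55 to 0.04 without young library 1. The replicate number as a block gave 2055 calls (790 rose, 1265 fell), 1794 of them shared with the main fit. The numbers do not pair the libraries: the correlation across genes of the deviations of same-numbered young and aged libraries was 0.126, -0.025 and -0.001, and only library 1 correlated best with its own number. TPM gives no depth, so no limit from counting error can be set for the low values.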

Other observations

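General neuronal genes showed no common direction, but the neurofilaments fell together. Of 14 tested genes of neurons in general 2 rose and 4 fell (median -0.06). Nefh, the heavy neurofilament chain of large axons, was 60.7, 74.8 and 69.1 TPM in the young libraries and 30.1, 34.8 and 41.7 TPM in the aged ones (-0.93 ± 0.11, adjusted p = 0.003 with limma). Nefm and Nefl, the medium and light chains, fell by 0.52 and 0.34 on the log2 scale, and Stmn2, a tubulin-binding protein of growing axons, by 0.31. Syt1, the calcium sensor of fast release in forebrain neurons, rose from 192, 141 and 165 to 310.0, 263 and 235 TPM (0.70 ± 0.14, adjusted p = 0.016), and Snap25, its partner in the release machinery, was at 0.02. The hindbrain genes described above were lower in the same libraries, with summed levels given there, and the part of that regional difference in the neurofilament values was not tested.

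Few genes that are often followed in ageing brain passed. Of 15 tested genes of the amyloid precursor, its secretases and tau 2 fell, Aplp2 by 0.27 and Aph1a by 0.21. App, the precursor itself, was 766, 769 and 765 against 716, 735 and 799 TPM (-0.03, adjusted p = 0.8), and Mapt, tau, was at 0.02. Of 18 tested genes of insulin and IGF signalling, sirtuins and FoxO factors 3 fell: Foxo4 by 0.44, Foxo3 by 0.35 and Sirt2, the sirtuin of myelin, by 0.32. Sirt1 was 3.76, 3.90 and 3.86 against 3.88, 2.65 and 2.36 TPM (adjusted p = 0.12), and its groups overlapped. In the lysosome and autophagy list 1 of 24 rose, Ctss, the cathepsin of microglia (0.27), and Lamp1 and Ppt1 fell by 0.30 and 0.34. In the cholesterol list 1 of 22 rose, Cyp46a1, the neuronal enzyme that starts cholesterol export (0.54 ± 0.15, adjusted p = 0.04). These shares stand beside 5.48% of all genes that rose and 11.2% that fell.

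None of 19 tested tubulins passed with limma, 3 of them at an unadjusted p under 0.05. Cd24a, a surface protein of newborn neurons and of ependyma and choroid plexus, was 69.4, 57.7 and 70.2 TPM in young and 24.99, 35.4 and 38.9 TPM in aged libraries (-0.99 ± 0.16, adjusted p = 0.0081), and Igfbpl1, of newborn neurons, fell by 0.64. In the same list Sox11 and Sox4 were at 0.11 and 0.13 and did not pass. Keratins, proteins of epithelia, had 4 rises and no fall among 8 tested genes. Their means were higher at 4 and lower at 4, and 1 averaged under 1 TPM in the young libraries. The mean log2 level of all 54 keratins overlapped between the ages. Metalloproteinases with their inhibitors had 2 rises and 8 falls among 21. Of these 21, 1 averaged under 1 TPM in the young libraries and 1 over the libraries of 18 months. Over all genes 5.48% rose and 11.2% fell.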
